A study of Mus musculus with 12 samples.

Results

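The genes of the plasminogen activators and their inhibitors that are described here are Plau, Plat, Plaur and Serpine2, 4 of the 55862 genes in the deposited table. They were chosen by gene name. Plau encodes urokinase-type plasminogen activator, Plat encodes tissue-type plasminogen activator, Plaur encodes the cell surface receptor that binds urokinase, and Serpine2 encodes protease nexin-1, a serpin that inhibits both activators and also thrombin. RNA was sequenced from 12 mouse brain samples, 3 in each of 4 groups, all labelled strain C57BL/6, where the methods write C57BL/6J for the mice of both suspensions, and no genetic change or drug is named for any of them. ASTs were astrocytes grown as monolayers with serum from neonatal cerebral cortex freed of meninges, taken at day 0 of sphere culture as the negative control. A-iSCs were the same kind of astrocytes after 5 days as spheres on an agarose surface that cells do not attach to. P56-NPCs and P0-NPCs were the positive controls, single-cell suspensions from the subependymal zone of adult mice at postnatal day 56 and from the hippocampus at postnatal day 0. The methods name no sorting step for these suspensions, and they speak of independent experiments in general terms without saying what animals or cultures lie behind the RNA samples of a group, so each p-value given here measures the spread between these samples, which may be technical.

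Both activators are secreted serine proteases that cut plasminogen, an abundant inactive precursor made mainly by the liver, into plasmin, a protease of broad action that degrades fibrin and other matrix proteins and releases or activates growth factors. The urokinase receptor holds urokinase at the cell surface, whereas tissue-type activator is best known for its action on fibrin clots and, in the brain, for its release by neurons and glia. Serpins end this activity by forming a covalent complex with the protease, which is then taken up by receptors of the LDL receptor family. Serpine2 is a well known product of glial cells in the brain.

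The promoters of Plaur and Serpine2 are shown because the former gene was highest in the cultured monolayers and the latter in the adult suspension. RefSeq windows of 250 bases before to 50 bases after the start site on GRCm38.p6 were found for 2 of the 4 members, and Plau and Plat are named only. The Plaur window lies at chr7:24462233-24462532 on the plus strand, and its capitals mark a match to the AP-1 element. The Serpine2 window lies at chr1:79858616-79858915 on the minus strand, and its capitals mark matches to the GC box.
Plaur: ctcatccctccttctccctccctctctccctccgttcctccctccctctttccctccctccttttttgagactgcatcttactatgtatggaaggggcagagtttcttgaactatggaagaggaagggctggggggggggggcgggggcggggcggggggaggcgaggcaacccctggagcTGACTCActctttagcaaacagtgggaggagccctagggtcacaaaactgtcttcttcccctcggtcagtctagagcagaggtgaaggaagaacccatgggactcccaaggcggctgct
Serpine2: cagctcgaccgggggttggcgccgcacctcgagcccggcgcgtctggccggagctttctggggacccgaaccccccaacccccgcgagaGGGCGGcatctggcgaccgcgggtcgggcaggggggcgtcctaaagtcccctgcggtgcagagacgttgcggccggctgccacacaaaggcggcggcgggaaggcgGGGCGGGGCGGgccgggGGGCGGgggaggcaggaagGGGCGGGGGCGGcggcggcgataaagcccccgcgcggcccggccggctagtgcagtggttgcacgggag

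The AP-1 element was searched as TGACTCA or TGAGTCA on both strands. The Plaur window held 1 match, whose first base lay at position -69 from the start site, and the Serpine2 window held 0. Of 32544 distinct RefSeq windows of the same length, 5.19% held this element. The GC box, GGGCGG on either strand, had 6 matches in the Serpine2 window, the first base of the farthest at -161, and 3 in the Plaur window, against 35.9% of windows with any match. Matches whose first bases were 5 apart shared 1 base, as at -55 and -50 in Serpine2. The TATA box TATAAA was found in 13.6% of all windows, the TEAD element CATTCC in 14.6%, the E box CACGTG in 7.17% and the cyclic AMP response element TGACGTCA in 1.80%, and each of these had 0 matches in the windows of both members. The Serpine2 window was 77.7% G and C with 41 CpG dinucleotides, and the Plaur window was 59.3% G and C with 7. The median window had 53% G and C (interquartile range 46 to 61.7%) and 7 CpG dinucleotides (interquartile range 3 to 20). The Serpine2 start site of this window lay 2515 bases inside the 5′ end of the gene as the table gives it. These matches describe letters only, since no binding or chromatin was measured.

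The values are FPKM, fragments counted on a gene per kilobase of its length and relative to a library size that the authors had already scaled between samples. The recovered fragments numbered 17077780 to 24452419 per sample, and a floor of 3 fragments, the lowest count read here as a level, stood at 0.103 to 0.187 FPKM where a gene was 1 kilobase long. This floor covers counting error only. Every member was above it in every sample, with 25 fragments the fewest for Plaur and 33 the fewest for Plau. The AST sample 2 and the A-iSC sample 3 stood farthest from the other samples of their groups, with a chi-square per degree of freedom of at least 39.5 and 75.5 against them, where the closest pair of ASTs had 2.51. Mitochondrial genes held 16.5 to 17.6% of the fragments in P56-NPCs and 2.94 to 7.03% in the others. Differences were tested with limma on log2(FPKM + 1) over all genes with a mean of at least 1 FPKM in either group, and a gene was called where its Benjamini-Hochberg adjusted p was under 0.05. A gene that reached 1 FPKM in the higher group alone entered the test through that group, which set its direction, and its call is then no separate support for it. Among the members this held for Plaur in each comparison of a suspension with a cultured group, and for Plau in each comparison with P0-NPCs. With no filter on level these calls were made in the same direction, with a limma adjusted p of at most 0.00429. Fold changes on this scale understate differences of low genes, so the fold of the group means is given as well. With scaling by library size alone, the median log2 fold change over all genes moved from -0.06 to 0.13 for A-iSCs over ASTs, and the calls went from 3550 higher and 4165 lower to 4563 higher and 2989 lower. With upper-quartile scaling this median was -0.17, with 3026 higher and 4954 lower. The split also moved with library size scaling for P56-NPCs over ASTs (5924 higher and 6032 lower to 4569 and 7559), P0-NPCs over ASTs (5713 and 6146 to 7106 and 4860), A-iSCs over P56-NPCs (4532 and 4643 to 8329 and 2857) and P56-NPCs over P0-NPCs (6115 and 6011 to 3438 and 9428). The direction of each member's call below was the same under these scalings, and the 2 calls that were lost are given with their values.

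In A-iSCs, RNA of the activator Plau and of its receptor Plaur was lower than in ASTs, that of the activator Plat was slightly lower, and that of the inhibitor Serpine2 was not called different. Thus 3 of the 4 members were called lower. Among all 14087 genes tested in this comparison, 54.8% were called in either direction and 29.6% were called lower. In bulk RNA, fewer cells of a type and less RNA per cell cannot be told apart.

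Plau (ENSMUSG00000021822) lies on the plus strand of chromosome 14, from 20836660 to 20843385 on GRCm38, the build of all positions in the table, and its coding transcript has 11 exons. Its level was 25.1, 28.6 and 21.4 FPKM in the ASTs, 10.9, 9.74 and 7.82 FPKM in the A-iSCs, 1.41, 1.45 and 1.33 FPKM in the P56-NPCs, and 0.702, 0.740 and 0.506 FPKM in the P0-NPCs. The 4 groups did not overlap, and each step in the order ASTs, A-iSCs, P56-NPCs, P0-NPCs was a fall. From ASTs to A-iSCs the mean fell from 25.0 ± 3.59 to 9.48 ± 1.55 FPKM (SD, n = 3), which was 2.64-fold lower, with a log2 fold change of -1.31 ± 0.16 (SE; limma adjusted p = 0.000411). Plau in A-iSCs remained 6.78-fold above P56-NPCs (limma adjusted p = 1.11e-05) and 14.6-fold above P0-NPCs (limma adjusted p = 2.95e-06), the latter tested through the A-iSCs alone. Between the suspensions, P56-NPCs were 2.15-fold above P0-NPCs at a level of 33 to 58 fragments per sample, tested through P56-NPCs alone (log2 fold change 0.54 ± 0.10, limma adjusted p = 0.00122), a call that was lost with scaling by library size alone (0.23, limma adjusted p = 0.0736).

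Plat (ENSMUSG00000031538) lies on the plus strand of chromosome 8, from 22757727 to 22782844, and its coding transcript has 14 exons. Its level was 25.7, 27.9 and 26.3 FPKM in the ASTs, 21.5, 20.7 and 20.0 FPKM in the A-iSCs, 9.50, 8.67 and 10.2 FPKM in the P56-NPCs, and 12.6, 12.8 and 13.6 FPKM in the P0-NPCs. It was the member that varied least, and the groups did not overlap. The mean of 20.7 ± 0.755 FPKM in A-iSCs was 1.28-fold below the 26.6 ± 1.10 FPKM of the ASTs (SD, n = 3), with a log2 fold change of -0.35 ± 0.10 (SE; limma adjusted p = 0.0236). This call did not survive scaling by library size alone (-0.14, limma adjusted p = 0.275), limma-voom on the recovered fragments (-0.28, adjusted p = 0.0743), or leaving out AST sample 1 (-0.37, limma adjusted p = 0.0742), AST sample 3 (-0.35, limma adjusted p = 0.0858) or A-iSC sample 2 (-0.35, limma adjusted p = 0.0667). The call of A-iSCs over ASTs was also lost with the replicate number as a block (-0.35). Plat in A-iSCs stood 2.19-fold above P56-NPCs (limma adjusted p = 8.17e-05) and 1.60-fold above P0-NPCs (limma adjusted p = 0.000718). Unlike Plau, Plat was lower in P56-NPCs than in P0-NPCs, by 1.37-fold (log2 fold change -0.42 ± 0.07, limma adjusted p = 0.00109).

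Plaur (ENSMUSG00000046223) lies on the plus strand of chromosome 7, from 24462484 to 24475968, and its coding transcript has 7 exons. Its level was 47.0, 52.1 and 45.4 FPKM in the ASTs, 7.81, 6.20 and 5.29 FPKM in the A-iSCs, 0.550, 0.595 and 0.650 FPKM in the P56-NPCs, and 0.668, 0.853 and 0.805 FPKM in the P0-NPCs. The receptor was thus high in every AST sample, intermediate in every A-iSC sample and below 1 FPKM in every suspension sample. From ASTs to A-iSCs the mean fell from 48.1 ± 3.51 to 6.43 ± 1.28 FPKM (SD, n = 3), 7.48-fold, with a log2 fold change of -2.74 ± 0.15 (SE; limma adjusted p = 1.11e-05). This was the largest fall of the members in that comparison under every scaling tried. A-iSCs were 10.8-fold above P56-NPCs (limma adjusted p = 1.35e-05) and 8.30-fold above P0-NPCs (limma adjusted p = 1.20e-05), in both cases tested through the A-iSCs alone. The suspensions were not tested against each other for Plaur because both means were under 1 FPKM, at 0.598 ± 0.0497 in P56-NPCs and 0.775 ± 0.0959 in P0-NPCs (SD, n = 3), and their order rests on 25 to 28 and 40 to 65 fragments per sample.

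Serpine2 (ENSMUSG00000026249) lies on the minus strand of chromosome 1, from 79794197 to 79861180, and its 3 coding transcripts have 5 to 9 exons. Its level was 33.5, 37.6 and 35.5 FPKM in the ASTs, 39.6, 27.6 and 53.9 FPKM in the A-iSCs, 102, 111 and 98.0 FPKM in the P56-NPCs, and 8.18, 11.4 and 10.1 FPKM in the P0-NPCs. The inhibitor was highest in the adult suspension and lowest in the newborn one, with the cultured groups between them and overlapping. The A-iSC mean of 40.4 ± 13.2 FPKM and the AST mean of 35.5 ± 2.02 FPKM (SD, n = 3) differed by a log2 fold change of 0.13, with a 95% interval from -0.41 to 0.67 (limma adjusted p = 0.653), so neither a modest rise nor a modest fall could be told from 0. Without A-iSC sample 3, which had the highest Serpine2 of the cultured samples, this value was -0.10 (limma adjusted p = 0.619), and without AST sample 2 as well it was -0.06 (limma adjusted p = 0.773). P56-NPCs were 2.57-fold above A-iSCs (log2 fold change of A-iSCs over P56-NPCs -1.39 ± 0.23, limma adjusted p = 0.00154), and A-iSCs were 4.08-fold above P0-NPCs (1.89 ± 0.24, limma adjusted p = 0.000249). Between the suspensions the difference reached 10.5-fold (3.27 ± 0.11, limma adjusted p = 2.30e-07).

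**Figure D1:**
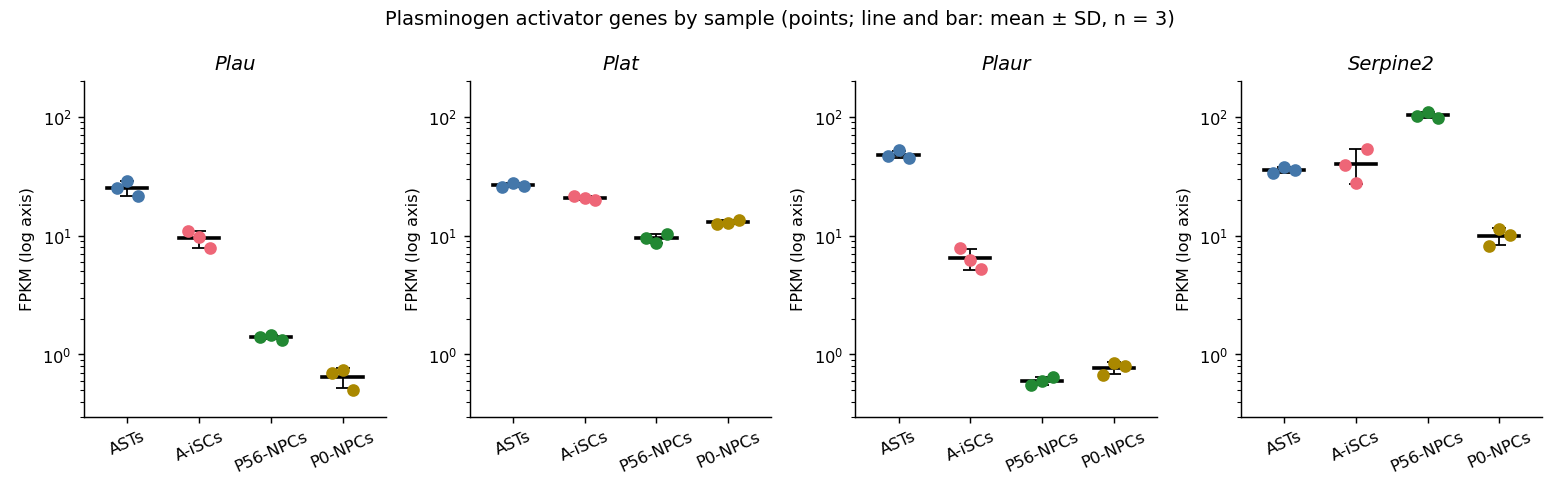
FPKM of Plau, Plat, Plaur and Serpine2 on a log axis in each of the 12 samples, with points for samples and a line and bar for the mean ± SD of the 3 samples of a group. Plau and Plaur step down from ASTs through A-iSCs to both suspensions, Plat spans only 8.67 to 27.9 FPKM, and Serpine2 is highest in P56-NPCs and lowest in P0-NPCs.

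Both suspensions were also set against the ASTs, the negative control of the study. These comparisons use the same 3 AST samples as that of the A-iSCs, so their values are given side by side and are not independent. In P56-NPCs, 3 members were called lower than in ASTs and 1 was called higher, where 78.9% of the 15146 genes tested were called in either direction and 39.8% were lower. Plau was 17.9-fold lower (log2 fold change -3.43 ± 0.11, limma adjusted p = 2.03e-07), Plat was 2.81-fold lower (-1.40 ± 0.08, limma adjusted p = 3.27e-06) and Plaur, tested through ASTs alone, was 80.5-fold lower (-4.94 ± 0.08, limma adjusted p = 1.42e-08). Serpine2 was the member called higher, at 2.91-fold (1.52 ± 0.08, limma adjusted p = 2.76e-06).

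In P0-NPCs, all 4 members were called lower than in ASTs, where 79% of the 15010 genes tested were called in either direction and 40.9% were lower. For 2 of the 4, Plau and Plaur, the filter on level was passed through ASTs alone, so that lower was the one direction possible. Plau was 38.5-fold lower (log2 fold change -3.97 ± 0.12, limma adjusted p = 7.93e-08), Plat was 2.05-fold lower (-0.98 ± 0.08, limma adjusted p = 1.02e-05), Plaur was 62.1-fold lower (-4.79 ± 0.09, limma adjusted p = 1.53e-08) and Serpine2 was 3.59-fold lower (-1.76 ± 0.12, limma adjusted p = 4.53e-06). Serpine2 was thus on opposite sides of the ASTs in the 2 suspensions, and the activators and the receptor were below the ASTs in both.

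Read from the side of the spheres, A-iSCs exceeded P56-NPCs in 3 members and Serpine2 was called lower, where 61% of the 15044 genes tested were called in either direction and 30.1% were higher. They exceeded P0-NPCs in all 4 members, where 65.1% of 15170 genes were called in either direction and 31.5% were higher. The filter was passed through A-iSCs alone by Plaur in both comparisons and by Plau in that with P0-NPCs. Between the suspensions, 2 members were called higher in P56-NPCs, 1 was called lower and Plaur was not tested, where 78.8% of 15394 genes were called. For most of these comparisons a call was therefore the usual outcome for a tested gene, and the size and order of the members' differences say more than the count of calls.

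**Figure D2:**
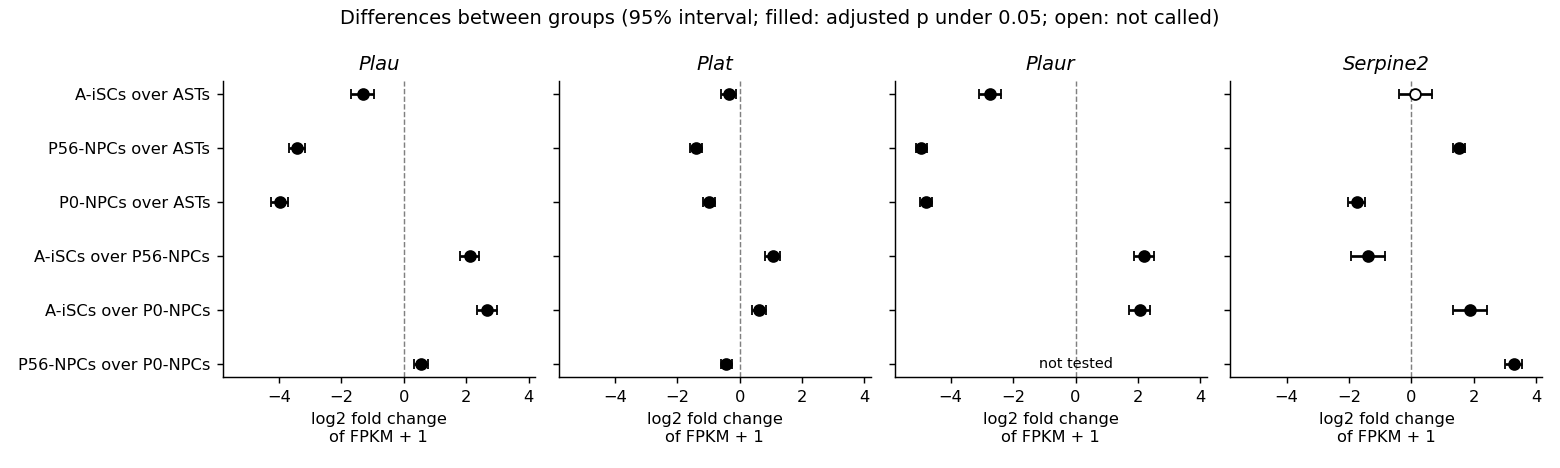
Log2 fold change of FPKM + 1 with its 95% interval for each member in the 6 comparisons of groups, filled where the limma adjusted p was under 0.05 and open where it was not. The only open point is Serpine2 for A-iSCs over ASTs, whose interval from -0.41 to 0.67 spans 0, and Plaur was not tested between the suspensions.

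Ratios within a sample compare the members with each other and do not depend on the scaling between samples. FPKM are divided by 1 length per gene, given as 2367 bases for Plau, 6241 for Plat, 2617 for Plaur and 8287 for Serpine2. These genes have 2, 3, 6 and 6 annotated transcripts, and which of them gave the RNA was not measured. The height of a ratio between genes therefore depends on these lengths. For a ratio of 2 single genes, the lengths cancel in its fold between groups. On the FPKM scale, Plau and Plat were near parity in ASTs, with 0.938 ± 0.111 of Plau per Plat (SD, n = 3). The ratio was 0.456 ± 0.0588 in A-iSCs, 0.149 ± 0.0183 in P56-NPCs and 0.0503 ± 0.0113 in P0-NPCs, so that Plat was the activator of higher FPKM in every A-iSC, P56-NPC and P0-NPC sample. The receptor exceeded its ligand in ASTs, with 1.94 ± 0.160 of Plaur per Plau, and was below it in A-iSCs at 0.677 ± 0.0405 and in P56-NPCs at 0.429 ± 0.0511. In P0-NPCs, where both RNAs were under 1 FPKM, this ratio was 1.23 ± 0.326.

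The inhibitor Serpine2 stood at 0.690 ± 0.0475 of the summed activators Plau and Plat in ASTs (range 0.660 to 0.745), 1.36 ± 0.529 in A-iSCs (range 0.905 to 1.94), 9.58 ± 1.26 in P56-NPCs and 0.724 ± 0.114 in P0-NPCs (SD, n = 3). The A-iSC samples lay above the AST samples in this ratio although Serpine2 itself overlapped between these groups. The widest value among the A-iSCs was that of sample 3, at 1.94. The ratio counts Serpine2 alone and is no measure of all inhibitors of the activators, and its value depends on the gene lengths given above. Across 3 ratios, 18 comparisons were made, and in 17 the groups did not overlap, which gives an exact two-sided permutation p = 0.1, the smallest that 3 samples against 3 allow (adjusted 0.106). The exception was Serpine2 to the activators in P0-NPCs against ASTs, where the samples overlapped (exact permutation p = 0.7). The exact permutation test cannot reach 0.05 with 3 samples against 3. These comparisons reuse the same samples and the same genes, so they are not independent. Between these groups, 54.8 to 79% of all genes tested with limma were called in either direction. How often ratios of other genes separate the groups was not computed, so the count of 17 is given as a description.

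**Figure D3:**
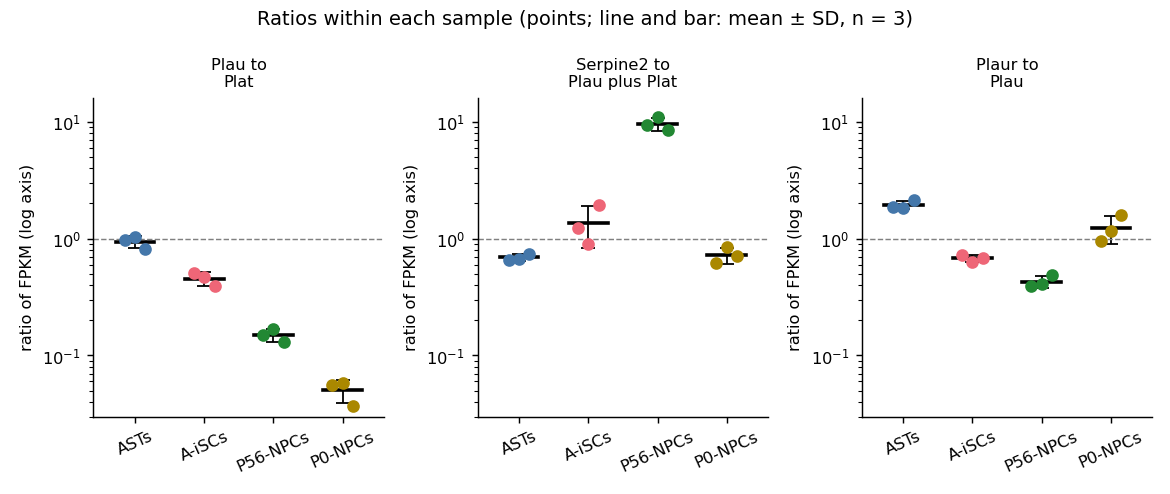
Ratios of FPKM within each sample on a log axis, with points for samples and a line and bar for the mean ± SD of the 3 samples of a group; the dashed line marks a ratio of 1. Plau to Plat steps down from ASTs to P0-NPCs, and Serpine2 to the activators is highest in P56-NPCs, with A-iSCs above ASTs.

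The surrounding pathway was read from a list of 39 genes in 6 roles, beside the 4 members. Of these, 24 were tested in A-iSCs over ASTs, where 16 were called lower, 2 higher and 6 were not called, with a median log2 fold change of -0.98 beside -0.06 over all tested genes. Of the 16, Serpinb2, Serpini1, F2rl1 and Thbd passed the filter on level through ASTs alone, and Hgf, one of the 2 higher, through A-iSCs alone, so that their direction was set by the filter. For these counts and for each role below, the share over all tested genes was 54.8% called in either direction and 29.6% called lower. The other 15 listed genes were under the filter on level. The zymogen itself, Plg, was among them. It had 0 to 3 fragments in each of the 12 samples, at or under the floor, and reached the floor itself in A-iSC sample 2 alone.

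Of 6 listed inhibitors, the 2 that were tested passed the filter on level through ASTs alone, and the other 4 were not tested, so their direction says nothing of the inhibitors as a role. Serpinb2, which encodes plasminogen activator inhibitor 2, fell from 2.30 to 0.0820 FPKM (-1.61, limma adjusted p = 2.45e-05). Serpini1, which encodes neuroserpin, an inhibitor of tissue-type activator made by neurons, fell from 1.74 to 0.615 FPKM (-0.76, limma adjusted p = 0.000852) and was highest in P0-NPCs at 6.10 FPKM.

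Of 4 genes of plasminogen binding at the cell surface, 3 fell in A-iSCs. S100a10 and Anxa2 encode the subunits of a complex that binds plasminogen and tissue-type activator. S100a10 fell from 581 to 112 FPKM (-2.36, limma adjusted p = 0.000103) and Anxa2 from 318 to 76.8 FPKM (-2.03, limma adjusted p = 4.27e-05). Eno1, a glycolytic enzyme that also binds plasminogen, fell from 294 to 193 FPKM (-0.61, limma adjusted p = 0.00968), a call lost with scaling by library size alone (-0.39, limma adjusted p = 0.0512). Among 6 tested receptors and clearance genes, Igf2r, which binds the urokinase receptor and mannose 6-phosphate, fell from 16.9 to 6.30 FPKM (-1.28, limma adjusted p = 0.00081). Mrc2, a collagen receptor associated with the urokinase receptor, fell from 2.49 to 1.02 FPKM (-0.79, limma adjusted p = 0.00681), and the other 4 were not called. One of those was Lrp1, which clears complexes of the activators with their inhibitors and is named here after its values were seen. Its means were 35.4 FPKM before and 45.5 FPKM after sphere culture (log2 fold change 0.37, limma adjusted p = 0.378).

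All 7 tested substrates, a role that holds targets of plasmin or of an activator, were called, 5 of them lower in A-iSCs. Fn1, the matrix protein fibronectin, fell from 299 to 66.3 FPKM (-2.14, limma adjusted p = 0.000231). Bdnf, a neurotrophin whose precursor plasmin can process, fell from 7.81 to 1.40 FPKM (-1.88, limma adjusted p = 1.94e-05), and Pdgfd, a growth factor activated by urokinase, fell from 16.3 to 4.56 FPKM (-1.65, limma adjusted p = 0.000207). The 2 that rose were named after their values were seen. Tgfb1, a growth factor stored in latent form, rose from 4.61 to 14.7 FPKM (1.43, limma adjusted p = 0.00197), and Hgf, a growth factor secreted as a precursor, rose from 0.212 to 1.50 FPKM (0.95, limma adjusted p = 0.0261). The A-iSC mean of Hgf rested on sample 3, since the A-iSC samples had 0.773, 0.890 and 2.83 FPKM, and without sample 3 the gene is under the filter on level and is not tested.

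The thrombin and tissue factor genes are described because Serpine2 also inhibits thrombin, and 4 of the 5 tested fell in A-iSCs, of which F2rl1 and Thbd passed the filter on level through ASTs alone. F2rl1, a receptor cut by trypsin-like proteases, fell from 29.3 to 0.892 FPKM (-4.02, limma adjusted p = 4.87e-06). F2r, the thrombin receptor, fell from 279 to 35.1 FPKM (-2.98, limma adjusted p = 1.91e-05), and Thbd, which encodes the thrombin-binding protein thrombomodulin, fell from 5.82 to 0.286 FPKM (-2.40, limma adjusted p = 9.99e-06). Tissue factor itself, F3, the remaining called gene of this role, named after its values were seen, fell from 368 to 70.0 FPKM (-2.38, limma adjusted p = 1.32e-05).

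**Figure D4:**
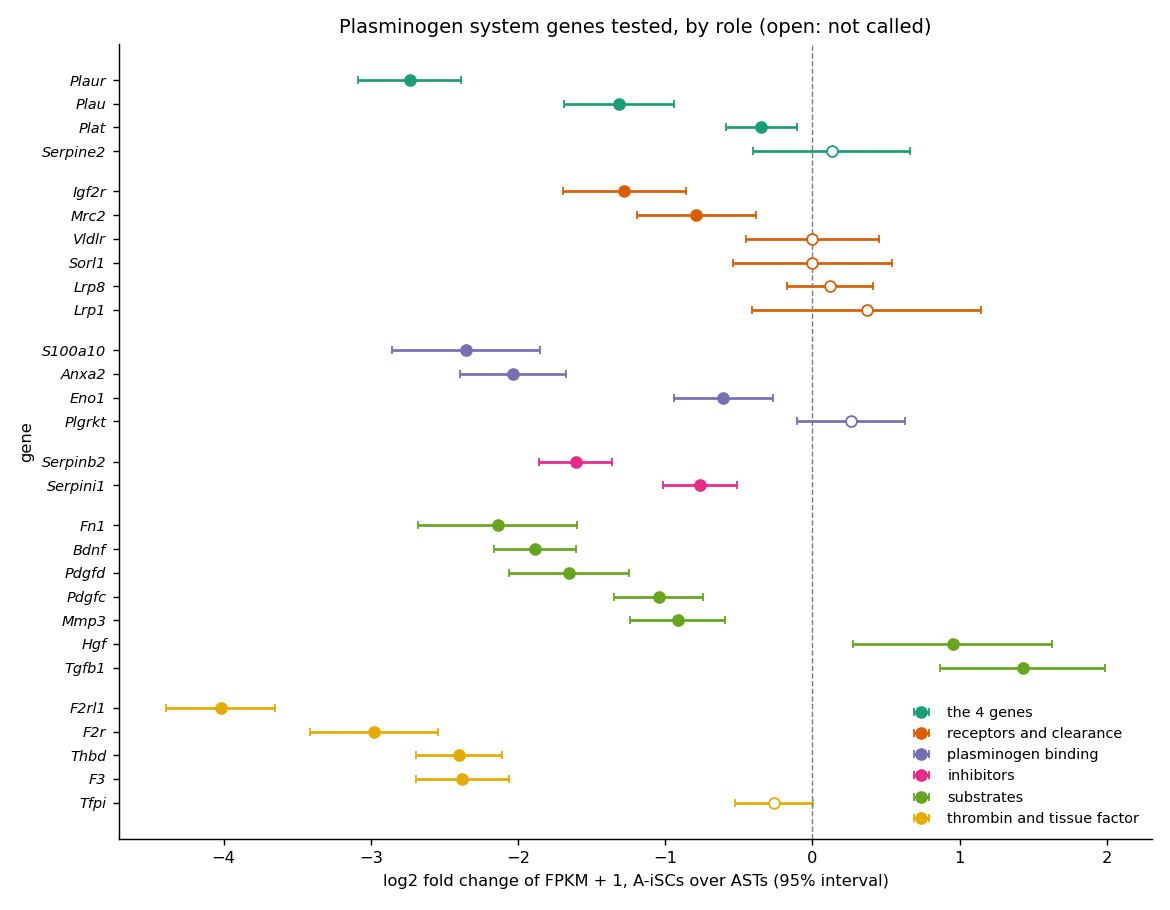
Log2 fold change of FPKM + 1 for A-iSCs over ASTs with its 95% interval for the 4 members and the 24 tested genes of the pathway list, coloured by role, filled where called by limma and open where not. F2rl1 lies farthest to the left at -4.02, Plaur lies lowest of the members at -2.74, and Hgf and Tgfb1 are the called genes to the right of 0.

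In the other comparisons the listed genes are counted beside the share of all tested genes that were called. Against ASTs, P56-NPCs had 18 listed genes lower and 3 higher of 24 tested, with a median log2 fold change of -1.52 beside -0.03 over all genes and 78.9% of all genes called, and P0-NPCs had 17 lower and 7 higher of 25, with a median of -1.47 beside -0.07 and 79% called. Against P56-NPCs, A-iSCs had 11 higher and 4 lower of 22, with a median of 0.41 beside 0.03 and 61% called, and against P0-NPCs they had 13 higher and 7 lower of 25, with a median of 0.56 beside -0.02 and 65.1% called. P56-NPCs over P0-NPCs had 7 higher and 14 lower of 22, with a median of -0.83 beside 0.01 and 78.8% called. Many of these calls had their direction set by the filter, so the counts and medians are given as a description. Against ASTs, the filter was passed through 1 group alone by 7 of the 18 lower genes in P56-NPCs (Serpinb2, Mmp3, Fn1, Bdnf, F2rl1, Thbd and Tfpi) and 1 of the 3 higher (Vtn), and by 3 of the 17 lower (Serpinb2, Mmp3 and Bdnf) and 2 of the 7 higher (Vtn and Mmp9) in P0-NPCs. The same held for 4 of the 11 higher and 2 of the 4 lower genes in A-iSCs over P56-NPCs, for 2 of the 13 higher and 4 of the 7 lower in A-iSCs over P0-NPCs, and for 5 of the 14 lower in P56-NPCs over P0-NPCs. Where the groups were those with ASTs, the same AST samples entered each comparison.

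Markers of other cell types moved with the groups, and their part in the members' differences was not tested. Summed over 6 markers of mural cells and fibroblasts, which include collagen genes, ASTs had 143 to 193 FPKM and A-iSCs 7.20 to 8.68 FPKM, and all 3 tested markers were lower in A-iSCs, of which Col3a1 passed the filter on level through ASTs alone. Most of this difference was Col1a1, with means of 158 and 2.98 FPKM. Of the untested markers, Dcn had 0.248 and 0.167 FPKM in ASTs and A-iSCs, Rgs5 had 0.311 and 0.699 FPKM, and Lum had 0.0374 and 0.128 FPKM. P56-NPCs had 9.37 to 14.0 FPKM of this panel. P0-NPCs had 139 to 140 FPKM of it, but of a different make-up. Col1a1 had a mean of 158 FPKM in ASTs and 34.2 FPKM in P0-NPCs, whereas Col3a1 had 2.39 and 34.9 FPKM, Rgs5 0.311 and 38.6 FPKM, Dcn 0.248 and 11.96 FPKM, Lum 0.0374 and 7.42 FPKM, and Pdgfrb 11.1 and 12.2 FPKM. The sum of 6 microglia markers was 96.5 to 127 FPKM in ASTs, 1084 to 1495 FPKM in A-iSCs, 435 to 458 FPKM in P56-NPCs and 63.6 to 73.5 FPKM in P0-NPCs, with 6 of 6 higher in A-iSCs than in ASTs, of which P2ry12 passed the filter through A-iSCs alone. The sum of 7 astrocyte markers was 140 to 159 FPKM in ASTs, 1199 to 2454 FPKM in A-iSCs, 2368 to 2589 FPKM in P56-NPCs and 237 to 302 FPKM in P0-NPCs, with 6 of 7 higher in A-iSCs than in ASTs. The sum of 5 neuron markers was 81.3 to 118 FPKM in ASTs and 36.3 to 58.8 FPKM in A-iSCs, without overlap. Stmn2 fell, with means of 53.8 and 7.16 FPKM, and Tubb3 overlapped, with 40.7 and 37.8 FPKM. Dcx had 0.0833 and 2.86 FPKM, Rbfox3 0.0268 and 0.145 FPKM, and Snap25 0.0912 and 0.392 FPKM, all higher in A-iSCs. The sum of 4 endothelial markers was 2.76 to 3.59 FPKM in ASTs and 1.13 to 1.92 FPKM in A-iSCs. Cdh5 fell, with 2.28 and 0.156 FPKM. Higher means in A-iSCs were those of Flt1 (0.850 and 1.22 FPKM, overlapping), Pecam1 (0.0541 and 0.205 FPKM) and Cldn5 (0 and 0.0584 FPKM, from A-iSC sample 1 alone). The falls of these 2 sums thus lay in Stmn2 and Cdh5, and the other markers of both panels overlapped or had higher means in A-iSCs. The part of neurons and endothelial cells in the calls of Serpini1 and Thbd was not tested. The astrocyte markers were thus present in the ASTs, as their label says, at a lower level than in the spheres.

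In A-iSC samples 1, 2 and 3 the astrocyte sum was 1199, 1492 and 2454 FPKM, beside 39.6, 27.6 and 53.9 FPKM of Serpine2. Sample 3 was highest in both, and samples 1 and 2 stood in opposite orders. The P56-NPCs, with the highest Serpine2, had 7851 to 8963 FPKM of 4 oligodendrocyte markers, where the other groups had 0.668 to 9.03 FPKM, and 1452 to 3120 FPKM of the choroid plexus marker Ttr. P0-NPCs had 725 to 3747 FPKM of Ttr, 794 to 984 FPKM of the neuron markers against 127 to 154 FPKM in P56-NPCs, and 66.8 to 67.4 FPKM of the endothelial markers against 2.57 to 3.15 FPKM. In ASTs the endothelial marker Cldn5 was at 0. The sum of 3 ependymal markers was 190 to 247 FPKM in P56-NPCs and 40.7 to 72.3 FPKM in the other groups, and that of 2 oligodendrocyte precursor markers was 22.2 to 27.3 FPKM in P56-NPCs and 3.09 to 11.5 FPKM in the others. Both suspensions thus held RNA of several cell types, and the cells that gave their Plat and Serpine2 RNA cannot be told apart here.

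**Figure D5:**
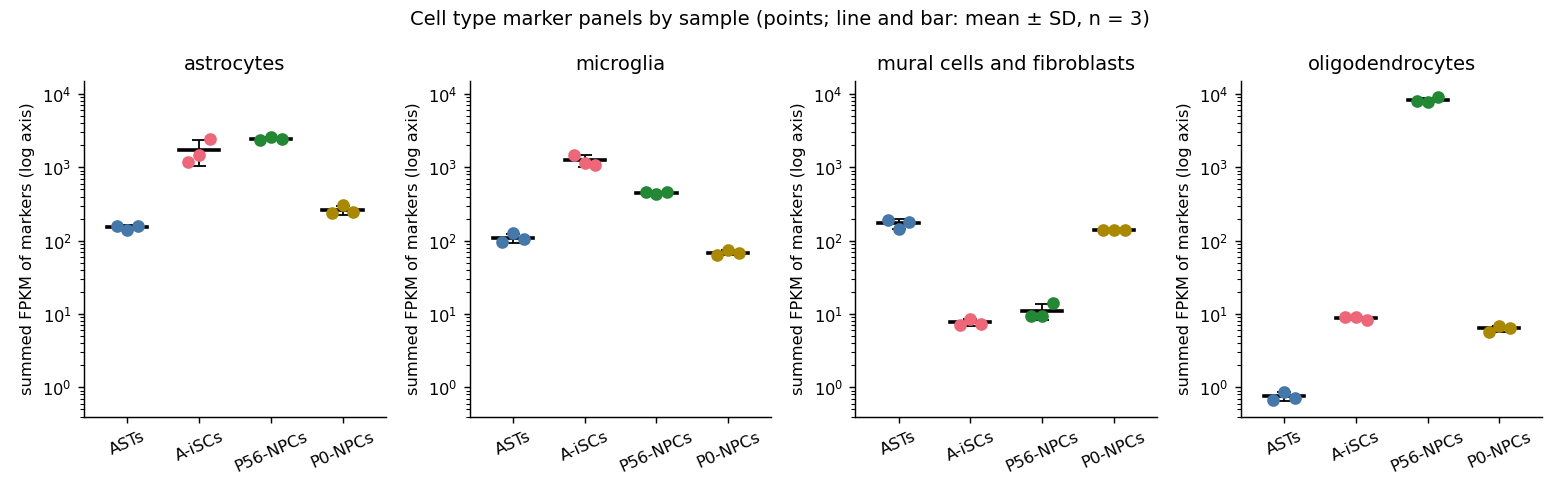
Summed FPKM of the marker panels of astrocytes, microglia, mural cells and fibroblasts, and oligodendrocytes on a log axis, with points for samples and a line and bar for the mean ± SD of the 3 samples of a group. A-iSCs lie above ASTs for astrocytes and microglia and below them for mural cells and fibroblasts, and oligodendrocyte markers reach 7851 FPKM or more in P56-NPCs alone.

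Over the 12 samples, Plau, Plat and Plaur followed one another and Serpine2 did not follow them. Pearson's r of log2(FPKM + 1) was 0.97 between Plau and Plaur, 0.93 between Plat and Plaur and 0.91 between Plau and Plat. For Serpine2 it was 0.17 with Plau, 0.02 with Plaur and -0.20 with Plat. These values describe 12 points that fall into 4 groups and share libraries, so they largely restate the order of the group means. Among 13659 protein-coding genes, the patterns most like that of Plau were those of Mrps6 and S100a6 (each r = 0.996) and S100a4 (r = 0.995). The genes most like Plat were Vim (r = 0.996), which encodes the intermediate filament vimentin, Plp2 (r = 0.994) and Atoh8 (r = 0.992). Those most like Plaur were Dusp5 (r = 0.998), a phosphatase of MAP kinases, Dnajb11 (r = 0.997) and Mybl1 (r = 0.997). Those most like Serpine2 were Acbd5 (r = 0.992), Abhd6 (r = 0.991) and Afg1l (r = 0.990). Dusp5 had 44.7 ± 3.13 FPKM in ASTs, 6.94 ± 2.09 FPKM in A-iSCs, 0.809 ± 0.0678 FPKM in P56-NPCs and 1.18 ± 0.152 FPKM in P0-NPCs (SD, n = 3), close to the levels of Plaur in each group.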

How the data were processed

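The study made libraries with an NEBNext Ultra kit, sequenced both ends on an Illumina HiSeq and kept only clean reads. The authors deposited a single table with 1 column per sample and the gene length, whose values were identified as FPKM because each value multiplied by the length was a whole multiple of 1 step per sample (within 0.01 fragments). The submitters' processing notes name Bowtie 0.12.2 and mm8, but the coordinates of all 4 members in the table equal those of GENCODE M21 on GRCm38, and the counting program and the annotation release are not given in the sources used here. Whether reads were counted by strand is not stated, and 0 annotated genes overlap the members.

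Groups were compared 2 at a time with limma 3.58.1 in R 4.3.3 (lmFit, and eBayes with a trend) on log2(FPKM + 1), over genes with a mean of at least 1 FPKM in either group, with Benjamini-Hochberg adjustment over all of them. The paper's DESeq2 was not run because the table holds no counts as deposited. The limma fit was tested on simulated data. Ratios were compared by exact two-sided permutation tests over samples. The other steps used scipy 1.17.1, pandas 2.3.3, numpy 2.4.6 and, for figures, matplotlib 3.10.9, under Python 3.11.15. The members, the pathway list and the marker panels were chosen with earlier results of these data known. Named from the list were Plg, Serpini1 and, per role, up to 3 called genes with the largest change in A-iSCs over ASTs, and for each member the 3 genes of highest r and the nearest protein-coding gene on each side.

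The alternatives were a pseudocount of 0.1, no filter, all 4 groups in 1 model, the replicate number as a block, scaling by library size or upper quartile, limma-voom on the recovered fragments, a log2 fold change beyond 1, and leaving out each sample. Leaving out AST sample 2 and A-iSC sample 3 together was chosen after the data were seen. One gene of the planned list is not reported here.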

Additional observations from a re-analysis of the deposited data

How the results depend on the processing

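Of the values that answer a comparison, 517 under an alternative were counted as unchanged, and the rest follow. For a member this meant the same direction and side of the threshold. For a number of called genes it meant a total within a fixed factor, whatever its split by direction. For a ratio it meant a log2 difference within 1 SD of the main value. Serpine2 to the activators in P0-NPCs over ASTs, where the groups overlapped, was therefore counted as unchanged. Its main value was 0.06, and it ranged from -0.05 to 0.17 when single samples were left out. For A-iSCs over ASTs, Plat (main value -0.35) lost its call with the replicate block (-0.35, limma adjusted p = 0.0608), library size scaling (-0.14), limma-voom (-0.28) and a required log2 fold change beyond 1 (-0.35), and ranged from -0.37 to -0.29 when single samples, or AST sample 2 and A-iSC sample 3 together, were left out. Serpine2 turned from 0.13 to -0.10 without A-iSC sample 3 and to -0.06 without AST sample 2 and A-iSC sample 3, and ranged from -0.10 to 0.37 when single samples were left out. It was not called in any of these. With a log2 fold change beyond 1 the genes called numbered 3017 of 7715 for A-iSCs over ASTs, 6095 of 11956 for P56-NPCs over ASTs, 5842 of 11859 for P0-NPCs over ASTs, 3979 of 9175 for A-iSCs over P56-NPCs, 4530 of 9876 for A-iSCs over P0-NPCs and 4690 of 12126 for P56-NPCs over P0-NPCs. By the same threshold Plat was no longer called for P0-NPCs over ASTs (-0.98), A-iSCs over P0-NPCs (0.64) and P56-NPCs over P0-NPCs (-0.42), nor was Plau for the last (0.54), and Plau also lost that call with library size scaling (0.23). The causes were not tested, apart from the stricter threshold, which by construction removes calls. The correlations of same-numbered deviations in A-iSCs and ASTs were -0.378, 0.335 and 0.427. With 3 samples per group and signs that differ, they do not settle whether replicate numbers pair the samples. The block changed no other member's call, with 7944 genes called in place of 7715 for A-iSCs over ASTs. Low genes were compressed by the pseudocount of 1: Plaur in P56-NPCs over ASTs was -4.94, against -6.11 with 0.1 and -6.27 with limma-voom. The depth leaves Plaur in both suspensions and Plau in P0-NPCs with 25 to 65 fragments per sample.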

Other observations

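The nearest protein-coding genes on either side of a member did not all move in its direction in A-iSCs over ASTs. Beside Plau, Camk2g, 42572 bases away, had a log2 fold change of -0.75 (limma adjusted p = 0.000955) and Vcl, 86013 bases away, had -1.95 (limma adjusted p = 0.0167). Beside Plat, which was slightly lower, Ap3m2 at 4510 bases had 0.64 (limma adjusted p = 0.00583) and Ikbkb at 51138 bases had 0.40 (limma adjusted p = 0.0307). Beside Plaur, Cadm4 at 6055 bases had -0.20 and was not called (limma adjusted p = 0.416), and beside Serpine2, Mrpl44 at 12752 bases had -0.03 (limma adjusted p = 0.845). Irgc1, 10187 bases from Plaur, and Fam124b, 337526 bases from Serpine2, were under the filter on level.

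Vtn, which encodes vitronectin, a plasma and matrix protein that binds the urokinase receptor, is named after its values were seen. It had 0.0525 FPKM in ASTs, from 1 to 3 fragments per sample and so at or under the floor, 0.872 FPKM in A-iSCs, 3.69 FPKM in P56-NPCs and 56.7 FPKM in P0-NPCs, the reverse of the order of Plau. It was higher than in ASTs in P56-NPCs (log2 fold change 2.15, limma adjusted p = 2.31e-06) and in P0-NPCs (5.77, limma adjusted p = 1.15e-08), directions that the filter on level set, since ASTs were under 1 FPKM, and was not tested in A-iSCs over ASTs because both means were under 1 FPKM.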
